A study of Homo sapiens with 18 samples.

Results

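The transcripts of 10 receptor tyrosine kinases were followed in mesothelioma cells given a TEAD inhibitor: AXL, MET, FGFR1, FGFR2, FGFR3, PDGFRA, PDGFRB, IGF1R, DDR1 and DDR2. They were found by gene name, and all 10 had a row among the 30954 genes counted in H2052 cells, whereas 9 had a row among the 19284 genes counted in H226 cells, where FGFR3 had none. H2052 is a mesothelioma line with mutations in the Hippo pathway genes NF2 and LATS2, and H226 is a mesothelioma line that lacks NF2. Parental H2052, NF1 mutant H2052 and H226 cells were given 1 µM VT107, which blocks the auto-palmitoylation of TEAD transcription factors, or the vehicle DMSO for 24 h, and polyA RNA was sequenced from 3 replicates of each of the 6 groups. NF1 mutant cells were made by CRISPR/Cas9 from H2052. The study's methods describe 2 independent sgRNAs and do not state which one these libraries came from, nor whether they came from a clone or a pool.

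Receptor tyrosine kinases sit in the cell membrane, bind a ligand outside the cell, pair up and phosphorylate each other, and so recruit adaptor proteins that switch on RAS, MAPK and PI3K signalling. NF1 encodes neurofibromin, which turns RAS off, and therefore acts below these receptors. TEAD proteins with their coactivators YAP and TAZ drive growth genes, and AXL is widely described as one of their targets. In bulk RNA, fewer cells that use a gene and less RNA of it per cell cannot be told apart.

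The promoter sequences of AXL and PDGFRA are given because only these members were called (adjusted p under 0.05) in a VT107 against DMSO comparison, each with a limit described below. AXL was called in H226 cells only, on reads of the opposite strand. PDGFRA was called in parental H2052 cells only, and only in a fit with the replicate number as a block. RefSeq windows (GRCh38.p14) matched 9 of the 10 members with 24 start sites. The 250 bases upstream of each were searched on both strands for GGAATG, the core letters that TEAD proteins bind. They were also searched for TGANTCA, a loose form of the AP-1 site in which N is any base. Capitals mark a match, and all sequences lie on the + strand and run 5′ to 3′.
AXL upstream start site, chr19:41218973-41219222: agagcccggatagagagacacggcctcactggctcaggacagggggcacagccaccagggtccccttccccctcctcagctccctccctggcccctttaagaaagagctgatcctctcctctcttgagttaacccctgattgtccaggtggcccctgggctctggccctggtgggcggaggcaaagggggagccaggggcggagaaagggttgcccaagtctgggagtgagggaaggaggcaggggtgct
AXL downstream start site, chr19:41226505-41226754: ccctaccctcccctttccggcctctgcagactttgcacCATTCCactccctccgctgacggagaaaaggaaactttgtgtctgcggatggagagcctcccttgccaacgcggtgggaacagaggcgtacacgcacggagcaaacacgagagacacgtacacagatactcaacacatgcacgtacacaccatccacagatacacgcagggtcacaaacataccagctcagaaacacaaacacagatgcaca
PDGFRA upstream start site, chr4:54229043-54229292: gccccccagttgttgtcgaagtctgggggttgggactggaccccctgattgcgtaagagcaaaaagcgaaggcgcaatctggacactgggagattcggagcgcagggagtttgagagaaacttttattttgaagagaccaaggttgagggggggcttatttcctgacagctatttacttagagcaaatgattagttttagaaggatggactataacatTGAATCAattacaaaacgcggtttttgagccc
The downstream AXL window held the TEAD letters on the opposite strand, 212 bases before the start site. The upstream PDGFRA window held the loose AP-1 letters as TGAATCA, 32 bases before its start site. The downstream PDGFRA window, not printed, held neither match. TEAD letters occurred in 4 of the 24 member windows, against 11.9% of 35116 promoter windows, and AP-1 letters in 2 of 24, against 6.57%. These matches are a description of letters and do not show a bound site.

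Counts summed to 10950284 to 13418485 per library in parental H2052, 3285363 to 5489092 in NF1 mutant H2052 and 1387223 to 1726786 in H226 cells. NF1 itself was lower in all 6 NF1 mutant libraries (8.22 to 18.04 CPM, counts relative to the TMM-scaled library size) than in all 6 parental libraries (26.1 to 67.8 CPM). Both parental libraries numbered 3 stood apart from the others of their group, with NF1 at 33.7 and 26.1 CPM against 55.3 to 67.8, and so did NF1 mutant VT107 replicate 1, whose mean correlation with its group was 0.819. Parental and NF1 mutant libraries also carry different naming prefixes, so genotype cannot be told apart from whatever those prefixes mark. The mesothelial keratins KRT8, KRT18 and KRT19 were abundant in H2052 cells, MSLN and WT1 were at 13.0 to 70.9 and 18.4 to 48.6 CPM, and the mesothelial markers CALB2 and UPK3B were low (0 to 8.23 and 0.288 to 1.46 CPM). Of the leukocyte genes, CD3E and TYROBP were at 0, PTPRC was at 0.268 CPM or less, and ITGB2 (8.95 to 264 CPM) and CD68 (2.38 to 26.1 CPM) were detected in every H2052 library. The H226 counts were made on the antisense side of each gene: in 14 of 14 pairs in which an abundant gene lies inside a little-used gene of the other strand, the outer gene got more counts. Each H226 value below is therefore the number of opposite-strand reads in the row of that receptor, and is not shown to be its mRNA.

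AXL, the receptor for GAS6, had by far the most RNA per length of the 10 receptors in H2052 cells. Divided by exon length (GENCODE 29), the mean AXL level in parental DMSO cells was 54.7 CPM per kb (range 44.0 to 75.1 over 3 libraries). FGFR1, a receptor for fibroblast growth factors, followed at 7.39 CPM per kb and MET, the receptor for hepatocyte growth factor, at 6.58, and their ranges overlapped. The discoidin receptors DDR1 and DDR2, which bind collagen, came next at 2.03 and 1.89. With them were the platelet-derived growth factor receptor PDGFRA at 1.98 and the insulin-like growth factor 1 receptor IGF1R at 1.43. The ranges of DDR2, PDGFRA and IGF1R overlapped one another. That of DDR1 (1.93 to 2.10) lay within those of DDR2 (1.08 to 2.32) and PDGFRA (1.42 to 2.97). FGFR3 (0.333) and PDGFRB (0.194) were low and their ranges overlapped as well. FGFR2 had 0 counts in every H2052 library, which allows up to 3 counts in each.

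**Figure D1:**
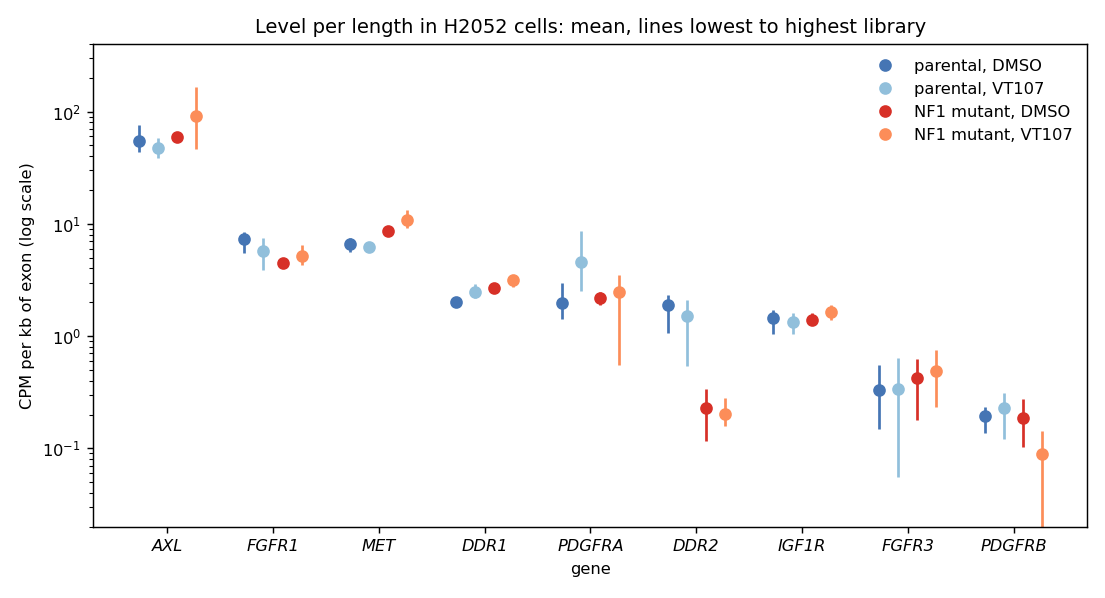
Level of 9 receptors in the 4 H2052 groups, as CPM per kb of exon on a log axis. Points are means of 3 libraries and lines run from the lowest to the highest library, or to the lower edge of the plot where a library was at 0 (PDGFRB). AXL stands highest in all 4 groups, with means of 54.7, 47.7, 59.5 and 91.04 CPM per kb, and DDR2 drops from 1.89 to 0.227 between parental and NF1 mutant DMSO cells.

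The first question was how the receptors differed between NF1 mutant and parental H2052 cells, whose NF1 loss lies below them in the pathway. In DMSO, DDR2 and FGFR1 were lower in NF1 mutant cells, and no member was higher by the test used (edgeR quasi-likelihood with Benjamini-Hochberg adjustment over all genes, adjusted p under 0.05). Among all 12475 genes tested, 27.4% were called, 1557 higher and 1863 lower, so 2 called members of 9 tested are close to that share. FGFR2 was not tested.

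DDR2 (ENSG00000162733, hg19 chromosome 1 from 162601163 to 162750237) had 24.4, 24.9 and 11.5 CPM in parental DMSO cells and 1.25, 2.41 and 3.65 CPM in NF1 mutant DMSO cells. The groups did not overlap, and parental replicate 3 was the lowest of its group. The raw counts behind these values were 305, 346 and 129 against 7, 11 and 15. DDR2 was thus 8.41-fold lower, a log2 fold change of -3.07 (standard error 0.42, edgeR adjusted p = 0.00139). Leaving out any 1 library moved this value between -3.46 and -2.71, and every such fit kept the call.

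In VT107, DDR2 again had no overlap, with 22.5, 19.97 and 5.77 CPM in parental and 1.70, 3.04 and 1.76 CPM in NF1 mutant cells. Its log2 fold change of -2.87 (standard error 0.60) did not pass in that comparison (edgeR adjusted p = 0.0914), where edgeR called 0 of 11654 genes (0%), although 1945 had an unadjusted p under 0.05 and DESeq2 called 682 and voomWithQualityWeights 3625. DESeq2, voomWithQualityWeights and the fit without parental VT107 replicate 3 did call it (adjusted p = 0.000741, 9.43e-05 and 0.042).

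FGFR1 (ENSG00000077782) had 113, 117 and 76.7 CPM in parental DMSO cells and 61.5, 67.4 and 57.5 CPM in NF1 mutant DMSO cells. All 3 mutant libraries were below all 3 parental ones, with parental replicate 3 nearest to them. The log2 fold change was -0.69 (standard error 0.17, edgeR adjusted p = 0.0181), a level 38.2% lower. The call was lost when any 1 library other than parental DMSO replicate 3 was left out (log2 fold change -0.76 to -0.60, adjusted p = 0.0516 to 0.0798), and in a fit of all 4 H2052 groups (adjusted p = 0.136). In VT107 the FGFR1 groups overlapped (103, 81.3 and 54.0 against 89.6, 65.9 and 59.1 CPM) and the log2 fold change was -0.16 (standard error 0.35, edgeR adjusted p = 0.855). There voomWithQualityWeights gave -0.56 and called FGFR1 lower (adjusted p = 0.0464).

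MET and DDR1 had higher values in every NF1 mutant DMSO library than in any parental one without passing the test. The share of all genes with groups apart in this way was not counted, here or in VT107. In DMSO 5054 of the 12475 genes tested had an unadjusted p under 0.05 by edgeR. MET was at 52.7, 46.7 and 39.5 CPM in parental and 58.5, 65.0 and 60.2 in NF1 mutant cells, a log2 fold change of 0.43 (standard error 0.15, edgeR adjusted p = 0.0576). DDR1 was at 19.1, 17.6 and 18.8 CPM against 25.7, 24.3 and 23.9, a log2 fold change of 0.43 (standard error 0.15, edgeR adjusted p = 0.0644). Without parental DMSO replicate 3, edgeR called both (adjusted p = 0.0203 and 0.0117), together with AXL and PDGFRA at log2 fold changes of 0.44 and 0.58, so that 6 members were called where 2 had been. In VT107 every MET value of NF1 mutant cells (94.1, 68.7 and 64.9 CPM) was again above every parental one (44.9, 42.0 and 44.2 CPM), and the log2 difference of 0.79 (standard error 0.30) was not called by edgeR (adjusted p = 0.252), while voomWithQualityWeights and the fit of all 4 H2052 groups called it (adjusted p = 0.0165 and 0.0314). Parental DMSO replicate 3 held the highest parental DMSO AXL (387 CPM against 227 and 232) and PDGFRA (28.9 against 13.8 and 15.0).

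**Figure D2:**
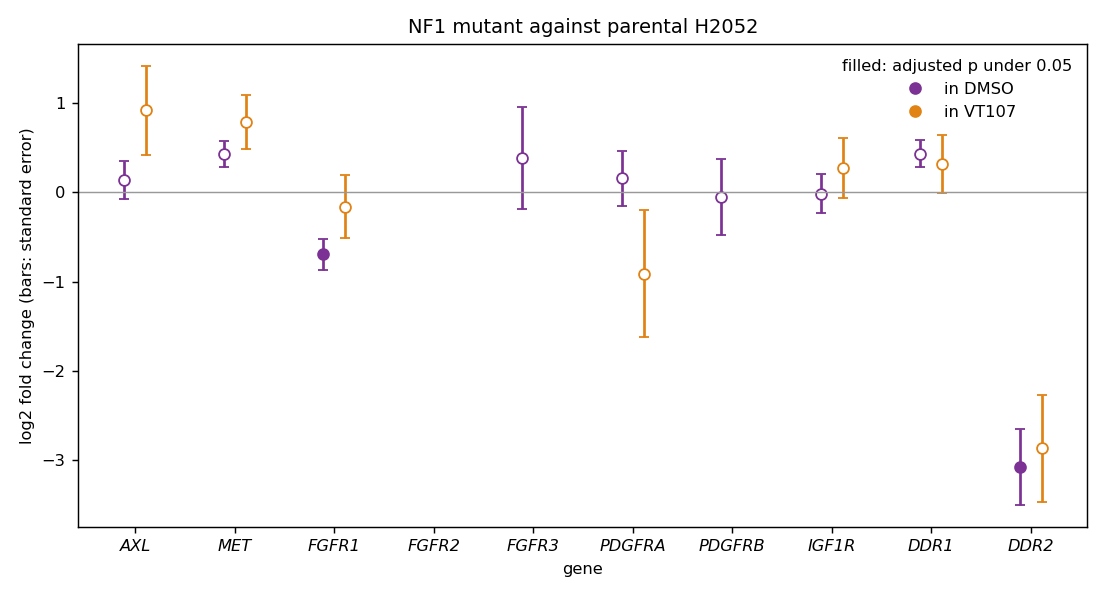
Log2 fold change of each tested receptor between NF1 mutant and parental H2052 cells, in DMSO and in VT107, with standard errors from 3 libraries per group. Filled points passed an adjusted p of 0.05. DDR2 lies at -3.07 and -2.87, far below the others, and FGFR1 in DMSO at -0.69 is the other filled point.

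Genes that work with these receptors showed lower and higher members in NF1 mutant DMSO cells. Among all genes tested 27.4% were called, and no list was tested against that share. Of 17 inhibitors of receptor signalling tested, 1 was higher and 5 were lower, with a median log2 fold change of -0.17 against -0.015 over all genes. CBL, a ubiquitin ligase that sends activated receptors to degradation, was at 114, 113 and 33.4 CPM in parental and 6.44, 9.19 and 6.82 CPM in NF1 mutant cells (log2 fold change -3.51, standard error 0.46, edgeR adjusted p = 0.00113). Its relative CBLB was lower by -1.12, the receptor phosphatase PTPRF by -0.97 and the ERK phosphatase DUSP6 by -0.93 on the same scale. Parental replicate 3 had the lowest parental CBL, as it had for DDR2 and NF1.

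Adaptors numbered 19 tested, of which 5 were lower and none higher, close to the 27.4% of all genes called. These were PIK3R1 (-1.10), GRB2 (-0.51), CRK (-0.73), SOS2 (-1.18) and PTPN11 (-0.79), the last of these named after its value was seen. Of 9 collagen genes, listed as ligands of DDR1 or DDR2 without a split by receptor, COL4A2 (-1.39) and COL6A3 (-2.51) were lower and COL1A1 (0.72) was higher. Among 8 other ligand genes tested, PDGFA was lower (-0.98) and FGF5 higher (0.45), while GAS6 was at -0.018 (edgeR adjusted p = 0.954). Of the 4 close relatives tested, INSR, the insulin receptor, was lower (-1.002) and FGFRL1, a fibroblast growth factor receptor without a kinase domain, was higher (0.70). The 24 other receptor tyrosine kinases tested included EGFR, lower by -1.25, and INSR, and NTRK3 and TIE1, which were higher (0.86 and 1.09). NRP2 (-1.62) and IGF2R (-1.06) were lower and SDC4 (0.64) higher among 12 co-receptors and shedding enzymes. In the VT107 comparison edgeR called no gene of these lists, but it called 0 of 11654 genes (0%) in all. DESeq2 called 682 genes there and voomWithQualityWeights 3625, so the lack of list calls does not show that these differences were absent in VT107.

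The second question was how VT107 moved the receptors in H2052 cells. In parental cells edgeR called no member among the 8 tested, and 0 of 12891 genes (0%) in all, although 474 had an unadjusted p under 0.05 and DESeq2 called 32 and voomWithQualityWeights 18. All 13 tested TEAD target genes had a negative log2 fold change (median -1.11), but none was called in this fit. The study names NPPB, IGFBP3, SNAPC1, CTGF, CYR61 and ANKRD1, all on this list, among the genes most lowered in these same data. The direction of this list was therefore known beforehand and is no separate check of any fit. Same-numbered DMSO and VT107 libraries of parental cells deviated together, although numbers 1 and 2 did so as much with each other as with themselves, and with the replicate number as a block edgeR called 215 genes (1.67%), among them 10 of the 13 TEAD targets, all lower, and 1 member.

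PDGFRA (ENSG00000134853, hg19 chromosome 4 from 55095264 to 55164414) was that member, and it rose. It had 13.8, 15.0 and 28.9 CPM in DMSO and 24.6, 26.4 and 83.3 CPM in VT107 in replicates 1, 2 and 3. The VT107 library was the higher one within every number, while the groups overlapped because DMSO replicate 3 lay above VT107 replicates 1 and 2. The log2 fold change was 1.24 without the block (standard error 0.56, edgeR adjusted p = 0.999) and 1.10 with it (standard error 0.16, edgeR adjusted p = 0.015). Without VT107 replicate 3 the unblocked value was 0.41, and without both libraries numbered 3 it was 0.86 (edgeR adjusted p = 0.0603). PDGFRA is also on the list of fibroblast markers, whose summed level ran from 419 to 634 CPM in DMSO and 404 to 726 in VT107, with LUM and DCN at 1.42 CPM or less and THY1 at 249 to 429, COL1A1 at 82.8 to 246, ACTA2 at 21.4 to 54.3 and FAP at 0.358 to 21.4 CPM over the H2052 libraries. FAP was at 3.60, 3.96 and 11.99 CPM in parental DMSO and 4.18, 5.55 and 21.4 in parental VT107 cells and was not called with the block (edgeR adjusted p = 0.194), and the part of these markers in the PDGFRA result was not tested.

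Among the other members in parental cells, the unblocked log2 fold changes ran from -0.35 (FGFR1) to 0.31 (DDR1). DDR1 was at 19.1, 17.6 and 18.8 CPM in DMSO and 21.8, 19.8 and 26.6 in VT107. Its groups did not overlap, but the share of all genes with groups apart was not counted in any comparison. DDR1 did not pass without the block (standard error 0.19, edgeR adjusted p = 0.999) or with it (0.30, standard error 0.13, edgeR adjusted p = 0.283). FGFR1 had 113, 117 and 76.7 CPM in DMSO and 103, 81.3 and 54.0 in VT107. It was lower in VT107 within each number, but with the block its log2 fold change of -0.37 (standard error 0.11) did not pass (edgeR adjusted p = 0.135). AXL was at 227, 232 and 387 CPM in DMSO and 240, 199 and 299 in VT107, groups that overlapped (log2 fold change -0.19, standard error 0.28, edgeR adjusted p = 0.999). MET (-0.07), IGF1R (-0.09), PDGFRB (0.23) and DDR2 (-0.32) had unblocked values smaller than their standard errors. DDR2 was lower in VT107 within each number. With the block it was at -0.41 (standard error 0.18) and did not pass (edgeR adjusted p = 0.277). FGFR3, at 0.27 to 3.10 CPM in parental cells, was below the minimum of 0.5 CPM in VT107 replicate 2 and was not tested there.

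With the block, 4 other genes of the signalling lists were called in parental cells, and all 4 were higher. Among all genes 1.67% were called, 109 higher and 106 lower. The 4 were COL6A3 (1.04), the neuropilin co-receptor NRP1 (0.93), DUSP6 (0.77) and SPRY2, an inhibitor of RAS signalling below receptors (0.76). They came from 9 collagen genes, 12 co-receptors and shedding enzymes and 18 inhibitors tested. No gene was called among 19 adaptors, 10 other ligands, 5 close relatives and 24 other receptor tyrosine kinases. The leukocyte list sum was 262, 267 and 41.5 CPM in DMSO and 124, 146 and 27.2 in VT107, while CD3E and TYROBP stayed at 0. The integrin ITGB2 made up most of the sum except in VT107 replicate 3, where it was at 8.95 CPM, and it was called lower with the block (-1.19, edgeR adjusted p = 0.00834). CD68 was at 2.64, 2.38 and 8.86 CPM in DMSO and 4.54, 4.12 and 15.8 in VT107, higher within each number and not called with the block (edgeR adjusted p = 0.092).

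**Figure D3:**
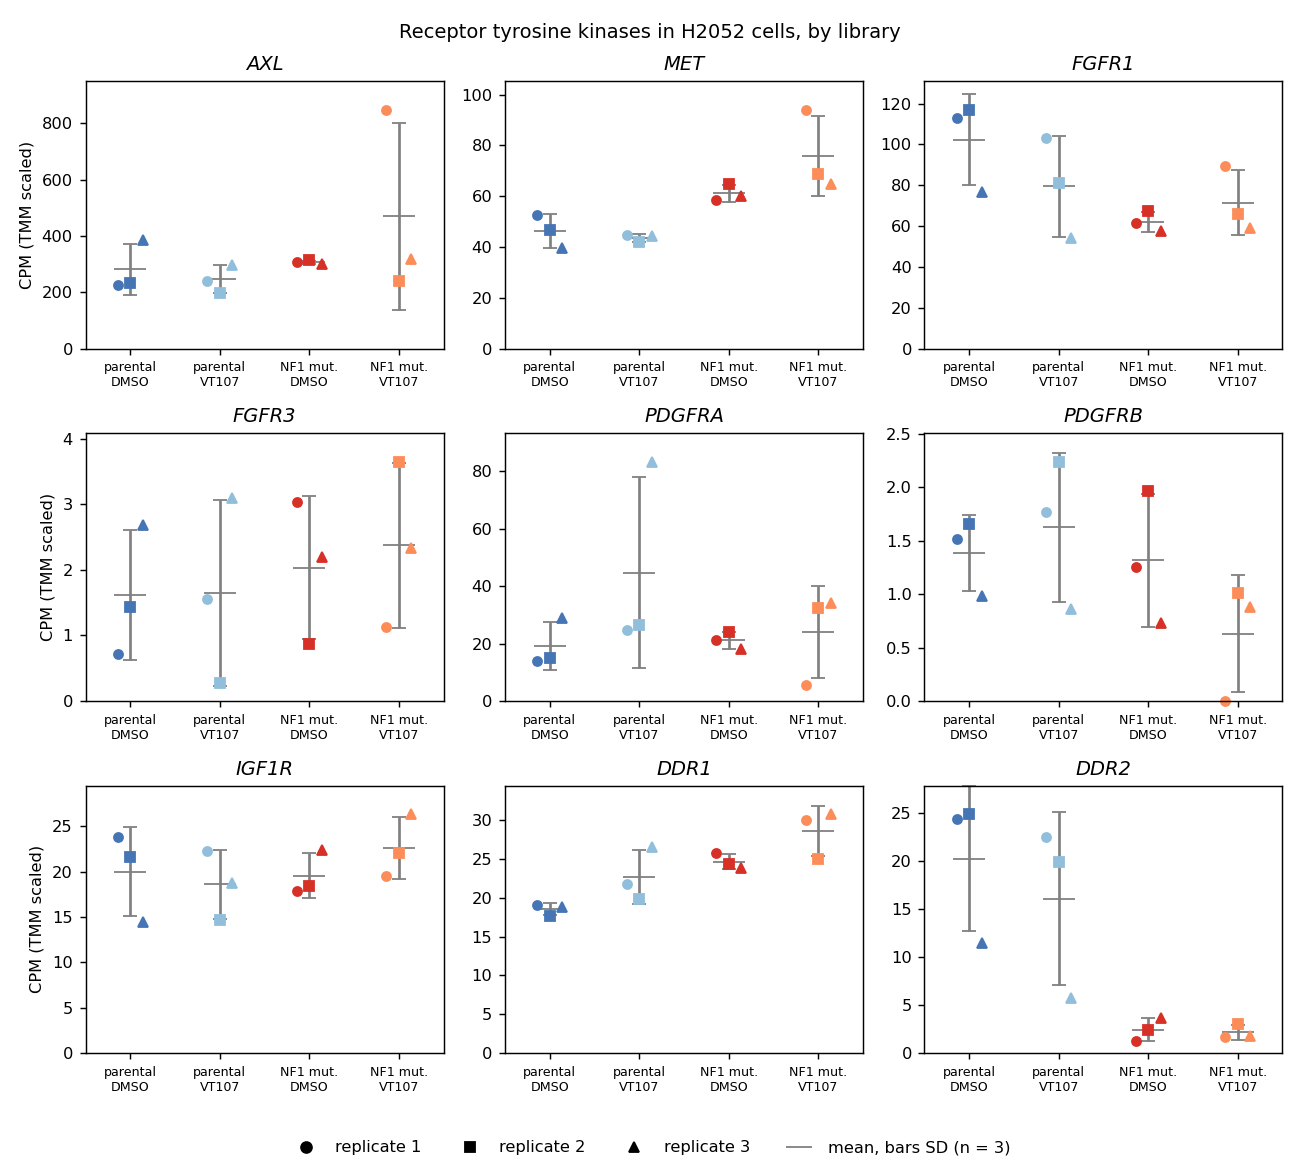
CPM of 9 receptors in each of the 12 H2052 libraries, with circles, squares and triangles for replicates 1, 2 and 3, and the mean and SD of each group (n = 3) in grey. DDR2 is at 5.77 to 24.9 CPM in parental and 1.25 to 3.65 in NF1 mutant libraries, PDGFRA is higher in VT107 within each parental number, and NF1 mutant VT107 replicate 1 holds the highest AXL (848 CPM) and the lowest PDGFRA (5.38 CPM).

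In NF1 mutant cells edgeR called 0 of the 8 members tested and 0 of 11605 genes (0%), with 612 at an unadjusted p under 0.05, 20 by DESeq2 and 164 by voomWithQualityWeights. AXL was at 306, 313 and 302 CPM in DMSO and 848, 241 and 319 in VT107. Replicate 1 of VT107 was far above the other libraries, and the log2 fold change of 0.61 (standard error 0.46, edgeR adjusted p = 0.774) was -0.13 without it. PDGFRA in the same group was at 5.38, 32.4 and 34.2 CPM, against 21.1, 24.1 and 18.3 in DMSO, with replicate 1 below and the others above every DMSO library. Its log2 fold change was 0.19 (standard error 0.59, edgeR adjusted p = 0.913), and 0.65 without replicate 1 (edgeR adjusted p = 0.0836). Without that library 198 genes were called, and none of them was a member. The other 6 members had log2 fold changes from -0.11 (DDR2) to 0.31 (MET). All 12 TEAD targets tested, from a list chosen with earlier results of these data known, were negative, with a median of -1.25 and none called.

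The test of whether the VT107 response differed between NF1 mutant and parental cells called 0 of 7 members and 0 of 11432 genes (0%), with 78 at an unadjusted p under 0.05 and 0 by DESeq2 and by voomWithQualityWeights. Differences between the 2 responses ran from -1.03 (PDGFRA, standard error 0.85) to 0.81 (AXL, standard error 0.57) on the log2 scale, and AXL came to 0.066 without NF1 mutant VT107 replicate 1.

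**Figure D4:**
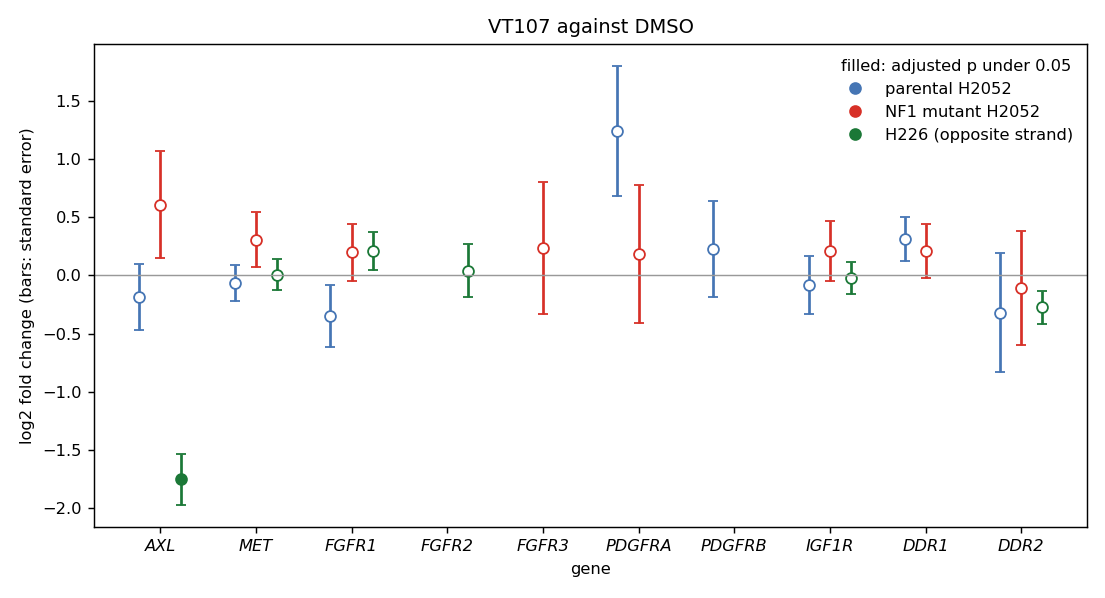
Log2 fold change of each tested receptor in VT107 against DMSO, with standard errors from 3 libraries per group, for parental H2052, NF1 mutant H2052 and H226 cells without a replicate block. The only filled point (adjusted p under 0.05) is AXL in H226 at -1.75, on opposite-strand counts, and PDGFRA in parental H2052 lies at 1.24 with a standard error of 0.56.

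In H226 cells VT107 lowered the opposite-strand counts in the row of AXL (ENSG00000167601, hg19 chromosome 19 from 41725108 to 41767670). They were 47.3, 42.0 and 49.1 CPM in DMSO and 13.1, 14.6 and 13.2 CPM in VT107, from 74, 63 and 63 reads and 24, 23 and 22 reads. The groups were far apart and each was narrow. The values correspond to a 3.37-fold lower level, a log2 fold change of -1.75 (standard error 0.22, edgeR adjusted p = 3.53e-06). No gene in the tables overlaps AXL on the other strand, and leaving out any 1 library gave -1.81 to -1.70, called each time. AXL was the 1 member called of 6 tested, where edgeR called 19.6% of 12765 genes.

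DDR2 in H226 cells was at 166, 139 and 130 CPM in DMSO and 128, 111 and 120 in VT107, just below in every library, and did not pass (log2 fold change -0.28, standard error 0.14, edgeR adjusted p = 0.182). MET had the highest group means of the members (548, 547 and 478 CPM against 516, 534 and 528), and its log2 fold change was 0.005 (standard error 0.13). IGF1R, with 493, 514 and 419 CPM against 527, 452 and 427, was at -0.021 (standard error 0.14), FGFR1 at 0.21 (0.16) and FGFR2 at 0.039 (0.23), and these 4 did not pass. FGFR1 and IGF1R are overlapped by genes of the other strand, which limits their H226 values. PDGFRA, PDGFRB and DDR1 had 0 to 3 reads in every library and were not tested.

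**Figure D5:**
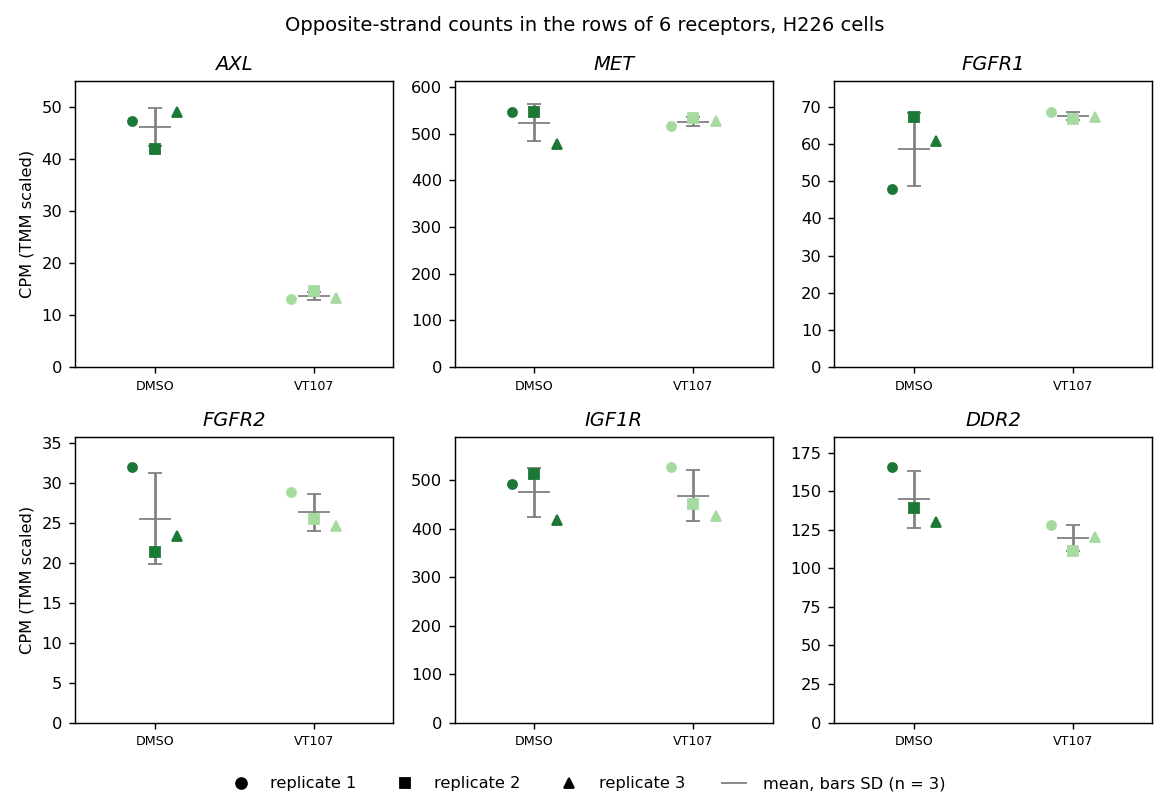
Opposite-strand CPM in the rows of 6 receptors in each of the 6 H226 libraries, with circles, squares and triangles for replicates 1, 2 and 3, and the group mean and SD (n = 3) in grey. AXL falls from 42.0 to 49.1 CPM in DMSO to 13.1 to 14.6 CPM in VT107, and the other 5 panels show groups that overlap or, for DDR2, lie side by side.

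Of the 14 listed TEAD targets, 9 had a row in H226 cells and 7 were tested. NPPB, IGFBP3, CTGF, CYR61 and ANKRD1, which the study names, had no row. Of the 7 tested 6 fell, among them F3 (-3.04), CCDC80 (-1.78) and LATS2 (-1.19). The median log2 fold change of the 7 was -0.85 against -0.014 over all genes. The TEAD target list was chosen with earlier results of these data known. All values in this paragraph are opposite-strand counts in the row of each gene and are not shown to be its mRNA. Overlap of these genes with genes of the other strand is not given here. Ligand rows that moved were FGF2 (-1.64), PDGFD (1.40) and GAS6, out of 10 tested. The row of GAS6, the ligand of AXL, rose by 0.77 (standard error 0.21, edgeR adjusted p = 0.0128). Among 14 inhibitors of receptor signalling, PTPRF fell (-1.67) and CBLB (1.80), PTPRJ (0.72) and ERRFI1 (0.60) rose. Of 30 other receptor tyrosine kinases tested 2 rose and 4 fell, close to the 19.6% called among all 12765 genes. EPHA7 (3.35), an ephrin receptor, and INSR (0.95) were among those that rose. ROR1 (-0.97) and ERBB3 (-1.90) were among those that fell. No list was tested against that share. COL4A1 (-0.60) and COL4A2 (-0.49) fell among 5 collagen rows. Among the co-receptors and shedding enzymes ADAM17, a sheddase (0.56), and NRP1 (0.74) rose, while CD44 (-0.46) and NRP2 (-1.33) fell. SOS2 rose (0.83) and GAB2 fell (-0.49) among 18 adaptors.

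The VT107 response of AXL in H226 minus that in parental H2052 cells was -1.55 on the log2 scale (standard error 0.38), which did not pass (edgeR adjusted p = 0.13) in a test that called 17 of 9309 genes (0.183%) and none of 5 members. With a replicate block, for which the H226 numbers gave no basis, the difference was -1.58 (standard error 0.24, edgeR adjusted p = 0.000526), and 7.46% of genes were called. DESeq2, voomWithQualityWeights and the fit without the parental libraries numbered 3 called it as well (adjusted p = 0.0389, 0.00273 and 0.00021). The lines were counted on different strands, and their part in this difference was not tested. The other 4 members differed by 0.071 (DDR2) to 0.57 (FGFR1), none called.

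Members also varied together across the 12 H2052 libraries, which share 2 genotypes and a depth difference between them. DDR1 and DDR2 ran opposite to each other (Pearson r = -0.867 on log2 CPM, -0.85 without NF1 mutant VT107 replicate 1), and FGFR1 followed DDR2 (0.72 and 0.847). AXL and MET correlated at 0.624 over 12 libraries and at 0.125 over 11. The genes most like AXL over the 12 libraries were ENTPD6 (0.979), DBNL (0.975), MRPS26 (0.971), TNPO2 (0.971) and ARPC4 (0.969). Over the 11 libraries they were DENND1A (0.95), NUAK2 (0.936), THOC4 (0.913), SLC1A4 (0.913) and ENTPD6 (0.913), so of the 5 only ENTPD6 was in both. NUAK2, which is on the TEAD target list, was at 0.455 over the 12.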

How the data were processed

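Raw read counts per gene were deposited by the authors for H2052 cells (12 libraries) and H226 cells (6 libraries), from 75-base single-end polyA sequencing. The submitters' processing notes name bcl2fastq 2.20.0.422 and hg19, and for the aligner, counter and strand setting the sources used here give no name. The H226 table also holds the authors' own comparison, which was not used, and 16 columns of another table match no sample. Counts of repeated IDs (63 and 10 rows) were summed.

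Each fit took the genes that reached 0.5 CPM in all of its libraries, and tested them with edgeR 4.0.16 (glmQLFit and glmQLFTest, TMM, R 4.3.3), Benjamini-Hochberg threshold 0.05, with 3 libraries a group. Alternatives used RLE factors, DESeq2 1.42.0, limma 3.58.1 voomWithQualityWeights, other filters, a replicate block, and libraries left out. Scripts were tested on simulated data. Same-numbered parental DMSO and VT107 libraries deviated together (r = 0.654, 0.532 and 0.822 over 11432 genes), so that block was read as a pairing, although DMSO 1 with VT107 2 (0.552) and DMSO 2 with VT107 1 (0.642) deviated together as much, so that the values set number 3 apart and do not pair 1 with 1 and 2 with 2. The other groups gave no such pattern. The study calls the replicates biological. Where libraries share a culture, p-values measure a technical spread.

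The members and lists were chosen with earlier results of these data known. Named genes are all members and, per list, up to 4 called genes with the smallest adjusted p. Levels per length used exon unions of GENCODE 29. Counting intervals and the limit of 3 counts cover counting error only.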

Additional observations from a re-analysis of the deposited data

How the results depend on the processing

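The numbers of members called were 0 for VT107 in NF1 mutant cells and for its difference from parental cells, and 1 for H226, under every alternative. In parental VT107 the replicate block gave 1, PDGFRA. For NF1 mutant against parental in DMSO (2) the count was 6 with voomWithQualityWeights or without the parental libraries numbered 3, 1 with all 4 H2052 groups in 1 fit, and 1 to 6 with 1 library left out. In VT107 (0) it was 1 with DESeq2, with no low count filter or without number 3, 2 with all 4 groups, 3 with voomWithQualityWeights and 0 to 1 with 1 library left out. For H226 against parental (0) it was 1 with DESeq2, voomWithQualityWeights, the block or number 3 left out, and 0 to 1 with 1 library left out. The cause was not tested. With a minimum of 10 counts DDR2 could not be fitted between genotypes in VT107, since it had too few reads.

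All-gene counts moved as well. VT107 in parental cells gave 0, and 32 with DESeq2, 18 with voomWithQualityWeights, 215 with the block and 44 without number 3. NF1 mutant cells gave 0, and 20, 164 and 3 with DESeq2, voomWithQualityWeights and all 4 groups, and 0 to 198 with 1 library left out (198 without VT107 replicate 1). H226 gave 2501, 1646 without VT107 replicate 3, and 1244 among genes with no opposite-strand overlap. NF1 mutant against parental in DMSO gave 3420, and 6551 with voomWithQualityWeights, 963 with all 4 groups and 1779 to 6409 with 1 library left out (6409 without number 3). In VT107 it gave 0, and 682 with DESeq2, 3625 with voomWithQualityWeights, 196 with no filter, 1297 with all 4 groups, 82 without number 3 and 184 without NF1 mutant VT107 replicate 1. H226 against parental gave 17, and 151 with DESeq2, 488 with voomWithQualityWeights, 8 with no filter, 694 with the block, 494 without number 3, 11 without opposite-strand overlap and 3 to 109 with 1 library left out.

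Of 50 member values, 25 changed sign at least once, and none of those was called in the fit reported. With voomWithQualityWeights the log2 values were -0.047 (AXL), -0.0018 (FGFR1) and 0.087 (DDR2) for VT107 in NF1 mutant cells, -0.012 for MET in H226, 0.26 for PDGFRA between genotypes in VT107, -0.014 for AXL between the NF1 mutant and parental responses and -0.025 for DDR2 between H226 and parental. With the replicate block PDGFRA was -0.12 for VT107 in NF1 mutant cells and IGF1R 0.0045 between genotypes in DMSO. MET in H226 was -0.0023 with no filter, and IGF1R 0.0058 with a minimum of 10 counts. Without number 3 the difference of responses was 0.039 for DDR1 (NF1 mutant) and -0.066 for DDR2 (H226).

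With 1 library left out, sign changes came with these lowest and highest values. In parental VT107 AXL ran from -0.36 to 0.14, MET from -0.15 to 0.027, PDGFRB from -0.061 to 0.52, IGF1R from -0.25 to 0.060 and DDR2 from -0.64 to 0.078. In NF1 mutant VT107 AXL ran from -0.13 to 0.92, FGFR3 from -0.26 to 0.67, PDGFRA from -0.15 to 0.65 and DDR2 from -0.46 to 0.29. In H226 MET ran from -0.053 to 0.044, FGFR2 from -0.074 to 0.24 and IGF1R from -0.11 to 0.046. Between genotypes in DMSO AXL ran from -0.010 to 0.44, FGFR3 from -0.056 to 0.95, PDGFRA from -0.046 to 0.58, PDGFRB from -0.43 to 0.22 and IGF1R from -0.20 to 0.12, and in VT107 FGFR1 ran from -0.37 to 0.11. For the NF1 mutant minus parental response DDR1 ran from -0.17 to 0.045 and DDR2 from -0.16 to 0.63, and for H226 minus parental IGF1R ran from -0.077 to 0.23 and DDR2 from -0.31 to 0.37.

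In the parental VT107 comparison same-numbered libraries deviated together, mainly through number 3. In the other comparisons same-numbered libraries did not deviate together in every pair, so the block there is a fit on a shared number only. It changed no other call of a member than PDGFRA in parental VT107 and AXL in H226 against parental. Depth limits FGFR3, PDGFRB and, in NF1 mutant cells, DDR2, which rest on few reads.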
